A study of Mus musculus with 4 samples.

Results

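The genes by which cells display peptides to T cells were examined in mouse liver: 32 genes of the major histocompatibility complex (MHC) class I and class II pathways and their regulators, chosen by symbol from the 46603 Ensembl genes counted in total liver RNA. They are 10 genes for class I heavy chains and their partner B2m, 5 genes for peptide transport, loading and trimming, 5 for the immunoproteasome and its activator, 2 for class I-like molecules, 6 for class II chains, and 4 transcriptional regulators. All 32 were found in the table and all 32 passed the filter on low counts.

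The livers came from 4 male mice, all HuR flox/flox on the C57BL/6 J background, whose ages were not given in the sources used here. Mice 1 and 2 are the controls, which received AAV8-TBGP-GFP by tail vein, and mice 3 and 4 are labelled HuR hKO and received AAV8-TBGP-Cre. TBGP is the thyroxine-binding globulin promoter, which is active in hepatocytes, so that Kupffer, dendritic, endothelial and other non-parenchymal cells are not targeted. All 4 were fed WDSW, a Western diet in which fat gave 42% of kcal and cholesterol made up 0.1%, with 23.1 g/L fructose and 18.9 g/L glucose in the drinking water, for 4 weeks, and HuR is the RNA-binding protein that Elavl1 encodes.

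Elavl1, the targeted gene, went against the labels. Controls held 377 and 347 of its reads, mice 3 and 4 held 541 and 648, and the fitted log2 fold change was 0.41 ± 0.135 (standard error, SE; adjusted p = 0.545 by edgeR's quasi-likelihood test). Every direction below is therefore that of the labels alone. The libraries held between 13032095 and 19715577 counts, the deepest being that of mouse 4, and 0 reads on a gene leave room for 3, which are 0.152 to 0.23 CPM (counts scaled to a common library size), counting error only. Hepatocyte markers led by Alb (albumin) and Apoa1 summed to between 72323 and 81686 CPM, whereas 5 neutrophil markers summed to between 0.376 and 0.907 CPM, with Ly6g at 0 in all 4 libraries and S100a9 and S100a8 the most abundant.

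As background, class I molecules are present on nearly all nucleated cells, hepatocytes included, and show CD8 T cells peptides that the proteasome has cut from proteins of the cell itself. TAP pumps these peptides into the endoplasmic reticulum, where tapasin helps load them on the heavy chain and B2m. Class II molecules are made mainly by professional antigen-presenting cells such as dendritic cells, macrophages and B cells, take up peptides of engulfed proteins in endosomes and show them to CD4 T cells. Nlrc5 and Ciita are the master coactivators of the class I and class II genes, and interferon gamma raises both pathways.

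Of the 32 genes, 19 lie in the MHC region of chromosome 17 between 33915899 and 37274484 (GRCm38). Levels are given as CPM on library sizes scaled with TMM factors, and differences as the log2 fold change of the libraries labelled HuR hKO over control, each group holding 2 mice. After this scaling 11 of the 32 genes had a higher and 21 a lower fitted level in the libraries labelled HuR hKO, and the median log2 fold change was -0.09, against 0.002 over the 13001 genes tested. At an adjusted p under 0.05 by edgeR's quasi-likelihood test 0 of the 32 passed, against a background of 3 genes (0.0231%) over all genes tested, and 0 also passed with DESeq2 and limma-voom. At an unadjusted p under 0.05 by the same edgeR test 0 of the 32 passed, against 7.43% of all genes (4.04% higher and 3.39% lower). The smallest unadjusted p was 0.0904, for Tap2, and the adjusted p-values from edgeR lay between 0.706 and 0.995.

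The 2 libraries labelled HuR hKO lay above both controls for 2 of the 32 genes (Rfx5 and Rfxank, against 19.3% of all genes) and below both for 7 (H2-K1, H2-D1, B2m, Tap1, Tap2, Tapbp and Tapbpl, against 18.8% of all genes). The 7 of 32 are near the share over all genes, so their number does not mark out the 32. Of these 7, 3 encode the heavy chains and partner of classical class I molecules and 4 belong to peptide loading. With 2 mice in each group the intervals stayed wide, and that of H2-K1, for example, ran from -0.60 to 0.17 on the log2 scale.

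**Figure D1:**
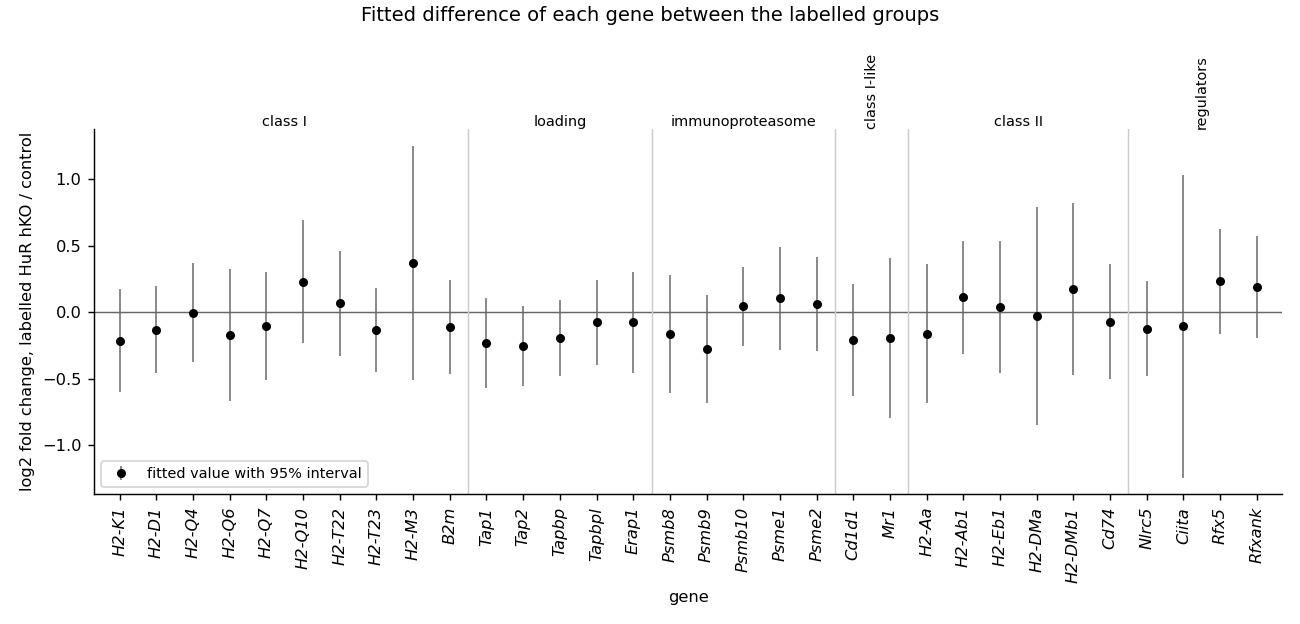
Fitted log2 fold change of each of the 32 genes, libraries labelled HuR hKO over control (vertical axis), with the 95% interval of edgeR's fit as a bar and the genes grouped by role along the horizontal axis. Every interval crosses 0, and the fitted values lie between -0.28 (Psmb9) and 0.37 (H2-M3).

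Levels of different genes were compared as CPM per kilobase of transcript. In the control livers the class I partner B2m (β2-microglobulin) was the most abundant of the 32, at 1535 ± 93.2 CPM per kilobase (SD, n = 2), followed by H2-Q10 at 1145 ± 269.1 and H2-K1 at 1044 ± 148 CPM per kilobase (SD, n = 2 each). B2m lay above H2-Q10 in both control livers, while H2-Q10 and H2-K1 overlapped. H2-D1 followed at 334 ± 14.5, H2-T23 at 137 ± 6.36 and Cd1d1 at 118 ± 27.0 CPM per kilobase (SD, n = 2 each), of which the last pair overlapped. The most abundant class II gene, Cd74, stood at 56.7 ± 0.62 CPM per kilobase, next to H2-T22 at 56.9 ± 7.11, and the antigen-binding class II chains H2-Ab1, H2-Aa and H2-Eb1 at 27.1 ± 0.459, 26.9 ± 0.481 and 17.5 ± 0.282 (SD, n = 2 each). H2-Ab1 and H2-Aa overlapped. The lowest of the 32 was Ciita at 0.162 ± 0.0539 CPM per kilobase (SD, n = 2), with Nlrc5 at 2.89 ± 0.408 on the same scale.

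**Figure D2:**
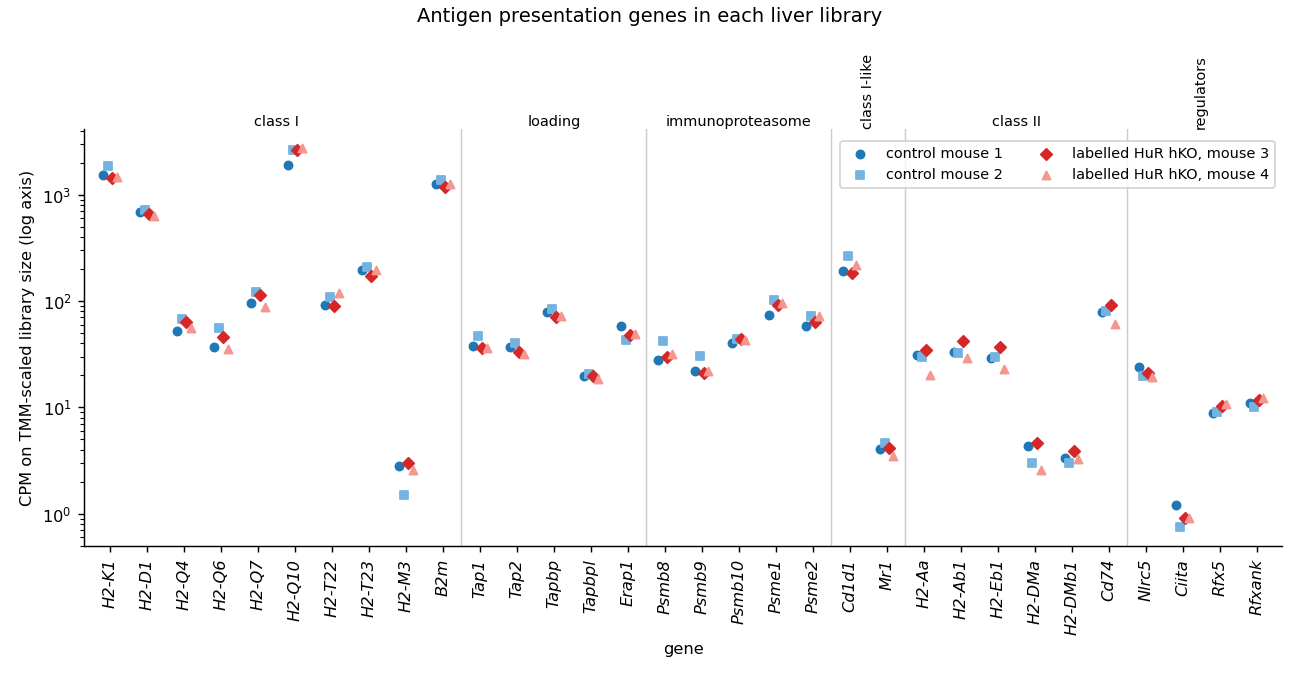
CPM of each of the 32 genes in each of the 4 liver libraries (vertical log axis), grouped by role along the horizontal axis, with a different symbol for each mouse. The points of a gene mostly lie close together on a scale that runs from under 1 CPM for Ciita to 2729 CPM for H2-Q10 in mouse 4.

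Class I heavy chains are encoded by a family of near copies. H2-K1 and H2-D1 are the classical chains found on most cells, H2-Q10 encodes a class I protein that the liver secretes, H2-Q6 and H2-Q7 encode Qa-2, H2-T23 encodes Qa-1, which binds receptors of NK cells, H2-T22 is a ligand of γδ T cells, and H2-M3 presents peptides that begin with formyl-methionine. The family shares promoter elements that NF-κB (enhancer A) and interferon regulatory factors (the interferon response sequence) are known to bind. The 4 stretches of 56 bases below, from RefSeq on GRCm38.p6, are shown because all 4 heavy chain genes carry the interferon response sequence there, and all but H2-Q10 the enhancer A element before it. Capitals mark GGGATTCCC, the enhancer A element, and GTTTCACTT, the interferon response sequence, and positions are counted from the transcription start.
H2-K1, positions -127 to -72 from the first of its 2 listed starts, chr17:34000419-34000474, minus strand: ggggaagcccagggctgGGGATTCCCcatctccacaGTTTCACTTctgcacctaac
H2-Q6, positions -189 to -134, chr17:35424661-35424716, plus strand: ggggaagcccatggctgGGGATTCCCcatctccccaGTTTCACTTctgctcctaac
H2-Q7, positions -150 to -95, chr17:35439005-35439060, plus strand: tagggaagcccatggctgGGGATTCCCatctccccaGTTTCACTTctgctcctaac
H2-Q10, positions -192 to -137, chr17:35469897-35469952, plus strand: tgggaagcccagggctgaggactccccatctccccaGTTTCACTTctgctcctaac

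RefSeq promoters were matched for 25 of the 32 genes, and the 250 bases before each start were searched on both strands. GTTTCACTT was found for 8 of the 25 (H2-K1, H2-D1, H2-Q4, H2-Q6, H2-Q7, H2-Q10, H2-T22 and H2-M3), against 0.338% of all 32851 promoters of the same length. GGGATTCCC was found for 4 (H2-K1, H2-D1, H2-Q6 and H2-Q7), against 0.301% of all promoters, and the letters at that place in H2-Q10 do not match it. A gene was counted if any of its listed starts had a match, whereas the share counts each promoter once. Both strings were chosen as known elements of class I promoters, so these shares do not test for enrichment. The matches describe letters in a window and are not tested sites.

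H2-K1 (chromosome 17 from 33996017 to 34000347, minus strand) had 1521 and 1860 CPM in the control livers and 1439 and 1473 CPM in mice 3 and 4. Both libraries labelled HuR hKO were below both controls, by a log2 fold change of -0.22 (SE 0.168, adjusted p = 0.821 by edgeR). H2-D1 (chromosome 17 from 35262730 to 35267499, plus strand) had 680.5 and 723 CPM in controls against 654 and 627 CPM, which again did not overlap, with a log2 fold change of -0.13 (SE 0.142). B2m had 1263 and 1376 CPM in controls against 1185 and 1261 CPM, with a log2 fold change of -0.11 (SE 0.153), and its groups were separated by the narrow gap between control mouse 1 and mouse 4. These 3 genes kept a lower fitted level in all 11 alternative settings, where their log2 fold changes ranged from -0.37 to -0.04, and none passed the adjusted test in any of them.

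H2-Q10 differed from the classical chains in direction. It had 1901 CPM in control mouse 1, 2659 CPM in control mouse 2, 2612 CPM in mouse 3 and 2729 CPM in mouse 4, with a log2 fold change of 0.23 (SE 0.2, adjusted p = 0.839 by edgeR). Control mouse 1 stood below the other 3 livers, and without it the log2 fold change was -0.0062.

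The other heavy chains overlapped between the groups. H2-Q4 had 52.2 and 67.7 CPM in controls against 64.1 and 55.4 CPM, H2-Q6 had 36.6 and 55.5 against 46.3 and 35.6 CPM, and H2-Q7 had 95.6 and 121 against 114 and 87.5 CPM. All 3 of these Q region genes were highest in control mouse 2 and higher in mouse 3 than in mouse 4. H2-T23 had 195 and 208 CPM in controls against 171 and 196 CPM, and its neighbour H2-T22 had 91.3 and 109 against 89.9 and 120 CPM. H2-M3 was the lowest heavy chain gene, with 37 and 20 counts in controls and 43 and 48 in mice 3 and 4, and it had the widest interval of the 10, from -0.51 to 1.25. Over the 10 class I genes, 3 were higher and 7 lower, the median being -0.11 on the log2 scale, which was 0.03 without control mouse 2, the liver that was highest for 7 of the 10. Over the 13001 genes tested, control mouse 2 was the highest liver for 2852. Control mouse 1 was the highest for 3780 of them and the lowest for 3679.

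Because reads of near copies can be split or lost in counting, every stretch of 50 bases of each main transcript was searched for in the transcripts of all other annotated genes. Shared stretches made up 44.7% of H2-T22 (37.9% with H2-T10), 40.2% of H2-Q7, 39.2% of H2-Q4, 35.0% of H2-Q6 and 29.8% of H2-T23. They made up 14.3% of H2-D1, 8.79% of H2-K1, 8.03% of H2-Q10 and 0% of B2m. The counts of H2-T22, H2-Q7, H2-Q4, H2-Q6 and H2-T23 are thus less certain than those of B2m. How shared reads entered these whole-number counts was not given, beyond the name RSEM, a tool that estimates how to divide such reads.

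Peptide loading, singled out after the values were seen, was the group whose members most often lay apart. In it 4 of 5 genes were below both controls in the 2 libraries labelled HuR hKO, beside 18.8% of all genes. Over all 32 genes 7 were. The 5 genes share their libraries and are not independent of each other. Tap1 and Tap2 encode the subunits of the TAP peptide transporter. Tap2 (chromosome 17 from 34203527 to 34216321, plus strand) had 37.1 and 40.4 CPM in controls and 33.4 and 31.7 CPM in mice 3 and 4, a log2 fold change of -0.25 (SE 0.131, unadjusted p = 0.0904 and adjusted p = 0.706 by edgeR). Tap1 (chromosome 17 from 34187553 to 34197225, plus strand) had 38.0 and 47.04 CPM against 36.4 and 36.1 CPM, a log2 fold change of -0.23 (SE 0.147). Both controls were above both other libraries for each, though the gap for Tap1 was small beside the difference between the controls.

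Tapbp encodes tapasin, which holds the empty heavy chain at the transporter, and had 78.9 and 84.5 CPM in controls against 71.0 and 72.0 CPM, a log2 fold change of -0.19 (SE 0.124). Tapbpl, which encodes the tapasin-related peptide editor TAPBPR, had 19.7 and 20.5 CPM against 19.6 and 18.5 CPM (-0.08, SE 0.139), so that its groups were barely apart. Erap1, the aminopeptidase that trims peptides to the length class I holds, was the exception: it had 58.6 and 43.0 CPM in controls and 47.6 and 48.7 CPM in mice 3 and 4, between the controls. Leaving out each mouse in turn kept Tap1, Tap2, Tapbp and Tapbpl lower, between -0.39 and -0.03, and gave Erap1 a value of 0.15 without control mouse 1. Tap1 and Psmb9 overlap at their divergent starts, Tapbp shares 19.0% of its stretches with the antisense gene Gm19412, and Erap1 shares 14.0% with Cast on the opposite strand, and use of strand in the counting was not given in the sources used here.

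The immunoproteasome replaces the 3 catalytic subunits of the standard proteasome with Psmb8, Psmb9 and Psmb10, and Psme1 and Psme2 form its PA28 activator. Psmb9 had 21.9 and 30.3 CPM in controls against 21.1 and 21.98 CPM in mice 3 and 4, with a log2 fold change of -0.28 (SE 0.175), the lowest of the 32 genes. Psmb8 had 27.9 and 41.7 CPM against 30.1 and 32.0 CPM (-0.16, SE 0.191). In both genes control mouse 2 stood above the other 3 livers, which were close to each other. Psmb10 had 40.0 and 43.9 CPM against 43.8 and 42.7 CPM (0.04, SE 0.13), Psme1 had 73.5 and 102 against 91.9 and 96.7 CPM, and Psme2 had 58.0 and 72.5 against 63.4 and 72.8 CPM. Control mouse 1 was the lowest liver for 4 of the 5, Psmb9 excepted. Psme2 shares 59.3% of its stretches with Psme2b, and Psmb9 12.5% with Tap1.

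The ratio of each interferon-induced subunit to the standard subunit it replaces was taken per transcript length within a library, where scaling between libraries cancels. Psmb9 over Psmb6 was 0.112 and 0.126 in controls and 0.0837 and 0.0827 in mice 3 and 4, so the libraries labelled HuR hKO lay below both controls. Psmb6 itself had 115 and 142 CPM in controls against 149 and 157 CPM, a log2 fold change of 0.25 (SE 0.144), so that the ratio joins a lower numerator with a higher denominator, neither of which passed a test. Psmb8 over Psmb5 was 0.152 and 0.193 against 0.145 and 0.146, apart by a smaller gap. Psmb10 over Psmb7 was 0.234 and 0.223 against 0.237 and 0.208, with overlap. The mean difference of the 3 log2 ratios was -0.26, and between -0.34 and -0.19 with each mouse left out. An exact permutation test of 2 against 2 mice cannot reach a threshold of 0.05, so none is given.

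**Figure D3:**
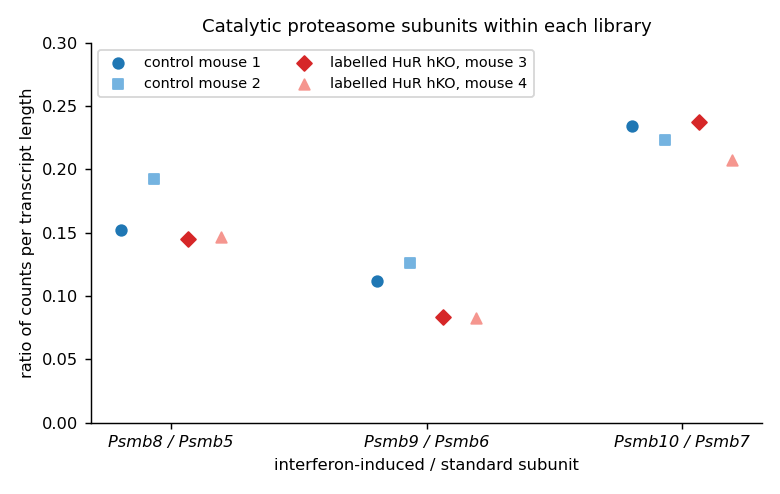
Ratio of each interferon-induced catalytic proteasome subunit to the standard subunit it replaces (vertical axis, counts per transcript length), with a point for each of the 4 livers and the 3 pairs along the horizontal axis. For Psmb9 over Psmb6 the 2 livers labelled HuR hKO (0.0837 and 0.0827) lie below the controls (0.112 and 0.126), while for Psmb10 over Psmb7 the groups overlap.

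The class I-like genes did not separate the groups. Cd1d1, whose product presents lipids to NKT cells, an abundant lymphocyte of mouse liver, had 193 and 268 CPM in controls against 182 and 216 CPM, a log2 fold change of -0.21 (SE 0.182). It shares 25.8% of its stretches with Cd1d2, which had between 2 and 10 counts. Mr1, which presents microbial vitamin B metabolites to MAIT cells, had 54 and 62 counts against 60 and 65, a log2 fold change of -0.19 (SE 0.261). Both genes were highest in control mouse 2.

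Class II genes gave a different picture, in which the 2 livers labelled HuR hKO differed from each other more than the groups did. The class II stretches below (90 bases, RefSeq on GRCm38.p6) are shown because class II chains share a promoter module, in which the X box, next to a cyclic AMP response element in some genes, binds the RFX complex and CREB and the Y box binds NF-Y. Capitals mark every match to the letters of the Y box core, CCAAT or ATTGG on the other strand. In H2-Aa they also mark the cyclic AMP response element TGACGTCA. H2-Eb1 holds a CCAAT and an ATTGG, and which of them is its Y box was not tested.
H2-Aa, positions -110 to -21, chr17:34287844-34287933, minus strand: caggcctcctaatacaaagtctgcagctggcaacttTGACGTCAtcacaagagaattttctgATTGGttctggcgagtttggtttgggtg
H2-Eb1, positions -110 to -21, chr17:34305757-34305846, plus strand: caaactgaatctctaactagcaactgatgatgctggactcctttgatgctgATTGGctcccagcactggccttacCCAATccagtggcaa

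TGACGTCA was found in 1.55% of all promoters and, of the 25 genes searched, only in H2-Aa. CCAAT was found for 18 of the 25 genes searched and in 33.8% of all promoters, counted as for the class I elements. These shares were not tested. H2-Aa (chromosome 17, minus strand) and H2-Eb1 (plus strand) lie near each other and encode an α and a β chain.

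H2-Aa, the α chain of I-A, had 30.8 and 30.0 CPM in the control livers, 34.3 CPM in mouse 3 and 20.3 CPM in mouse 4. H2-Ab1, its β chain, had 33.3 and 32.5 CPM in controls, 42.1 CPM in mouse 3 and 29.1 CPM in mouse 4. H2-Eb1, the β chain of I-E, had 28.9 and 29.6 CPM in controls, 37.3 CPM in mouse 3 and 22.9 CPM in mouse 4. For each of the 3 the controls were nearly equal, mouse 3 was above them and mouse 4 below them.

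Cd74, the invariant chain that escorts class II molecules to endosomes, repeated this order with 79.4 and 80.6 CPM in controls, 91.4 CPM in mouse 3 and 61.1 CPM in mouse 4. H2-DMa and H2-DMb1 encode the peptide exchange factor H2-DM. H2-DMa had 57 and 40 counts in controls and 66 and 49 in mice 3 and 4, or 4.29, 2.99, 4.60 and 2.60 CPM. H2-DMb1 had 44 and 40 counts against 56 and 61, or 3.31, 2.99, 3.91 and 3.24 CPM, and was the exception in which control mouse 2 was lowest. H2-DMb1 shares 27.2% of its stretches with H2-DMb2, which had between 9 and 18 counts, while none of the others shares any.

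Mouse 3 was thus the highest liver for 6 of 6 class II genes, at between 1.21 and 1.77 times the CPM of mouse 4, and mouse 4 the lowest for 5 of 6. The order with mouse 3 highest and mouse 4 lowest, singled out after the values were seen, was held by 5 of the 32 genes, all of them class II, and by 6.65% of all genes. The 6 class II genes share their libraries and are not independent of each other. Between the groups 3 were higher and 3 lower, with log2 fold changes between -0.16 (H2-Aa, SE 0.227) and 0.18 (H2-DMb1, SE 0.281) and adjusted p-values from edgeR of at least 0.905. Their median of 0.004 became -0.39 without mouse 3 and 0.33 without mouse 4, so 1 liver decided its sign.

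Markers of antigen-presenting cells were summed beside these values. The 9 dendritic cell markers, led by Zbtb46 and Clec9a, summed to 14.1 and 14.2 CPM in controls, 15 CPM in mouse 3 and 9.24 CPM in mouse 4, which was the lowest liver for 4 of the 5 tested, and none was at 0 in a liver. Clec9a had 40, 43, 51 and 30 counts. The 10 Kupffer cell markers, led by Clec4f and Cd5l, summed to 255 and 260 CPM in controls against 290.3 and 274 CPM. The 7 B cell markers, led by Ighm and Cd79b, summed to 4.59 CPM in control mouse 1, 33.6 CPM in control mouse 2, and 21.2 and 23.6 CPM in mice 3 and 4, with Ms4a1 at 0 in control mouse 1. Dendritic markers followed the class II order at the low end in mouse 4. The Kupffer sum was highest in mouse 3, which was the highest liver for 6 of the 10 Kupffer markers. Between the groups 7 of these 10 were higher and 3 lower. B cell markers separated control mouse 1 from the rest. The part of these cell types in the class II values was not tested. In whole liver RNA fewer cells of a type and less RNA per cell cannot be told apart.

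Class I and class II genes were then compared library by library, as the mean over the genes of each log2 CPM minus its mean over the 4 livers. For the 10 class I genes this level was -0.08 and 0.09 in controls and 0.02 and -0.03 in mice 3 and 4. For the 6 class II genes it was 0.06 and -0.05 in controls, 0.30 in mouse 3 and -0.31 in mouse 4. The gap between mice 3 and 4 was thus 0.61 for class II and 0.05 for class I on the log2 scale, while the difference between the group means was -0.01 for either class. Class II minus class I was 0.15 and -0.14 in controls and 0.28 and -0.28 in mice 3 and 4, so the groups overlapped. In fitted values the class II median exceeded the class I median by 0.11, which became -0.28 without mouse 3 and was 0.37 at most with another mouse left out.

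**Figure D4:**
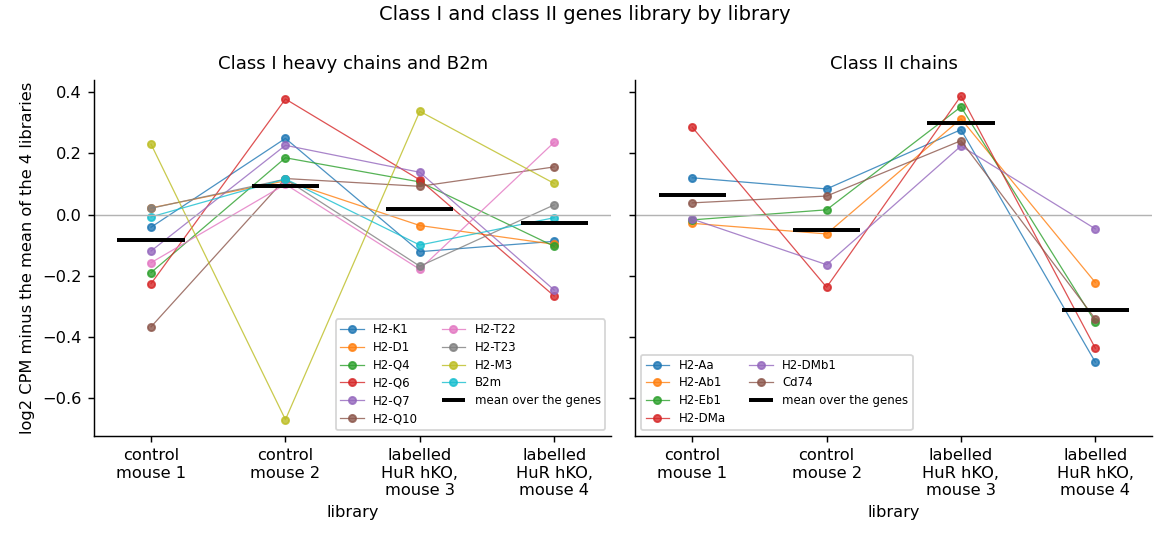
Log2 CPM of each class I gene (left) and class II gene (right) minus its mean over the 4 livers (vertical axis), in each library (horizontal axis), with the mean over the genes as a black bar. In the class II panel the bar of mouse 3 (0.30) and that of mouse 4 (-0.31) lie on either side of the controls, and in the class I panel the bars stay between -0.08 and 0.09.

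By mean level per kilobase of transcript in control livers, the regulators ranked 25 (Rfxank), 26 (Nlrc5), 29 (Rfx5) and 32 (Ciita) of the 32 genes. Nlrc5, the class I coactivator, had 24.1 and 19.7 CPM in controls and 20.9 and 19.4 CPM in mice 3 and 4, a log2 fold change of -0.12 (SE 0.154). Ciita, the class II coactivator, had 16 and 10 counts in controls and 13 and 17 in mice 3 and 4. Its interval ran from -1.24 to 1.03, so that a 2-fold difference in either direction lay within it. Rfx5 and Rfxank encode subunits of the RFX complex, which binds the X box of both classes. Rfx5 had 118 and 122 counts against 148 and 203, or 8.88 and 9.11 against 10.3 and 10.8 CPM, and Rfxank 11.1 and 10.2 against 11.8 and 12.4 CPM. Both were above both controls in the libraries labelled HuR hKO, with log2 fold changes of 0.23 (SE 0.172) and 0.19 (SE 0.165), beside 19.3% of all genes that lay apart in that direction. Rfx5 shares 31.0% of its stretches with the antisense gene B230398E01Rik and Rfxank 32.7% with Nr2c2ap on the opposite strand. The third subunit, Rfxap, had 13.8 and 10.8 CPM against 11.8 and 9.18 CPM.

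Lists of other genes of the pathway gave 0 genes at an adjusted p under 0.05 and 8 at an unadjusted one by edgeR's test, while DESeq2 called H2-Q1 and limma-voom 0 at the adjusted threshold. Of 15 other class I genes of the MHC region, 13 were in the table and 6 were tested, with 3 higher and 3 lower. H2-Q1, a nonclassical heavy chain gene of the Q region, had 49 and 80 counts in controls and 189 and 279 in mice 3 and 4, or 4.83 ± 1.62 against 14.0 ± 1.15 CPM (SD, n = 2 each). The groups were far apart, with a log2 fold change of 1.53 (SE 0.243, unadjusted p = 0.000214 and adjusted p = 0.103 by edgeR). Its log2 fold change lay between 1.22 and 1.93 over the alternatives and its adjusted p between 0.000257 and 0.546, passing 0.05 with DESeq2 (adjusted p = 0.00124), without a filter on low counts, and without control mouse 2. H2-Q1 shares 22.9% of its stretches with other genes, 13.9% with H2-Q2, which had 2 and 3 counts in controls against 7 and 13. H2-Bl, another class I gene of the region, had 34 and 39 counts against 11 and 32, with a log2 fold change of -1.11 (SE 0.434, unadjusted p = 0.0332, adjusted p = 0.613 by edgeR).

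Of 5 other class II region genes, 2 were tested and neither had an unadjusted p under 0.05 by edgeR. H2-Ea-ps, the α chain partner of H2-Eb1 that C57BL/6 mice carry as a pseudogene, had 0 counts in all 4 livers. Of 10 enzymes and adaptors of class II processing, 6 were higher and 4 lower, the median being 0.04 (-0.02 without mouse 4), and of 12 further transcription factors of MHC genes 4 were higher and 8 lower (-0.08, and -0.0031 without mouse 4). Of 7 class I-like receptors and related proteins outside the 32, 5 were tested, with 2 higher and 3 lower. In these 3 lists 0 genes had an unadjusted p under 0.05 by edgeR.

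Of 12 genes for class I assembly in the endoplasmic reticulum 3 were higher and 9 lower, at a median of -0.12. Control mouse 1 was the highest liver for 8 of the 12, with a summed level of 3092 CPM against 2143 CPM in control mouse 2 and 2256 and 2413 CPM in mice 3 and 4, and without it 9 were higher and 3 lower, the median being 0.14. Sec61g, a subunit of the translocation channel, had 20.8 and 26.9 CPM in controls against 28.3 and 39.1 CPM, a log2 fold change of 0.50 (SE 0.195, unadjusted p = 0.033 and adjusted p = 0.613 by edgeR). Of 16 genes for the standard proteasome and its activators 13 were higher and 3 lower, at a median of 0.15, and 0 had an unadjusted p under 0.05 by edgeR. Control mouse 1 was the lowest liver for 13 of the 16, with a summed level of 1561 CPM against 1781 CPM in control mouse 2 and 1767 and 1927 CPM in mice 3 and 4, and without it 11 were higher and 5 lower, the median being 0.04. The 5 immunoproteasome genes had a median of 0.04 on the same scale.

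Of 13 interferon gamma signaling genes 12 were tested, with 3 higher and 9 lower, the median being -0.06, or 0.02 without mouse 4. Of 20 interferon-inducible genes 4 were higher and 16 lower, and their median was -0.27 beside 0.002 over all genes. Of the 20, 9 lay below both controls (18.8% of all genes do). Their summed level was 668 CPM in control mouse 1, 589 CPM in control mouse 2, and 593 and 594 CPM in mice 3 and 4. Control mouse 1 was the highest liver for 10 of the 20. Without it 4 were higher and 16 lower, the median being -0.24. With all 4 livers, at an unadjusted p under 0.05 by edgeR, 3 were lower (beside 3.39% of all genes) and 1 higher, Bst2, a gene named after its value was seen. The 3 lower ones encode GTPases of cell-autonomous immunity: Igtp (-0.43, SE 0.151), Irgm1 (-0.41, SE 0.146) and Gbp3 (-0.61, SE 0.241). Their edgeR adjusted p-values ran from 0.574 to 0.619.

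Other marker lists were summed as well. Endothelial markers, led by Clec4g and Stab2, summed to 190 and 166 CPM in controls against 218 and 195 CPM, and 7 of 7 were higher, 0 of them at an unadjusted p under 0.05 by edgeR. Mouse 3 was the highest liver for 6 of these 7, as for the class II genes, whereas mouse 4 was the lowest for 0. Stellate cell markers, led by Dcn and Reln, summed to 174 and 181 against 194 and 245 CPM, and 7 monocyte-derived macrophage markers, led by Spp1 and Ccr2, to 35.0 and 25.5 against 40.8 and 45.9 CPM. At an unadjusted p under 0.05 by edgeR 2 of 6 stellate markers (Col1a1 and Col3a1) and 2 of the 4 tested macrophage markers (Trem2 and Spp1) were higher, beside 4.04% of all genes, these 4 being named after their values were seen. T and NK cell markers, led by Cd4 and Nkg7, summed to between 3.54 and 5.30 CPM. Cholangiocyte markers, led by Spp1 and Krt19, summed to 52.5 and 27.5 against 39.6 and 49.8 CPM. Krt19 was at 162 counts in control mouse 1 and 5, 7 and 34 in the other livers. Spp1 is on both the macrophage and the cholangiocyte list, so its reads enter both sums and do not tell these cells apart. It was also the 1 of 4 tested cholangiocyte markers that was higher at an unadjusted p under 0.05 by edgeR. Control mouse 1 thus held the most Krt19 and the lowest sum of B cell markers. It was the lowest liver for 7 of the 32 genes, H2-Q10, Psme1 and Psme2 among them, and the highest for 3. Over the 13001 genes tested it was the lowest for 3679 and the highest for 3780. The part of these cell types in the values of the antigen presentation genes was not tested.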

How the data were processed

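Total liver RNA of 4 mice (2 control, 2 labelled HuR hKO) was sequenced, and the authors deposited whole-number read counts for 46603 Ensembl genes, not normalized, as 1 table of 4 columns. The submitters' processing notes name RSEM and GRCm38, whereas the aligner, the annotation release, use of strand and any rounding were not given in the sources used here. No column was left without a mouse (0 unused).

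Symbols were matched for 46005 genes, coordinates are those of GENCODE M21 (GRCm38), and promoter sequences are RefSeq's. Counts were scaled by TMM and tested with edgeR 4.0.16 (quasi-likelihood, R 4.3.3) over the 13001 genes passing its default filter (minimum count 10, total 15), with Benjamini-Hochberg adjustment. Alternatives were other scalings, filters, DESeq2 1.42.0, limma-voom (limma 3.58.1) and leaving out each mouse. All 32 genes are named. Of other lists up to 3 genes with an unadjusted p under 0.05 are named, and of marker lists the 2 most abundant. A gene that this rule covers is not reported here. The 32 genes, the lists and the tests were chosen with earlier results of these data known. H2-Q8 and H2-Q9 were not analysed here. With 2 mice a group, the error of each gene borrows from all genes.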

Additional observations from a re-analysis of the deposited data

How the results depend on the processing

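The count of the 32 genes at an adjusted p under 0.05 was 0 by edgeR's test and in all 11 alternatives, where the smallest adjusted p was 0.477. At an unadjusted p under 0.05 the count ranged from 0 to 5 with each mouse left out: 5 without control mouse 1 (Cd1d1, H2-Q6, Psmb8, Psmb9 and Tap1, all lower, as 3.22% of all genes were) and 1 without mouse 3 (H2-Aa, lower, as 2.79% were). With a mouse left out, its partner was assumed to vary like the other group. The class I median ranged from -0.19 to 0.034, the class II median from -0.39 to 0.33 and their difference from -0.28 to 0.37. Other scalings, filters and tools moved these medians by less than the spread between mice. The median of all genes lay between -0.026 and 0.0052 in the alternatives.

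A direction was kept in every alternative by 13 of the 32 genes and changed in at least 1 by 19, nearly always when a mouse was left out. The ranges were then -0.44 to 0.045 for Cd1d1, -0.41 to 0.19 for Cd74, -0.41 to 0.26 for Ciita, -0.28 to 0.15 for Erap1, -0.60 to 0.18 for H2-Aa, -0.19 to 0.36 for H2-Ab1, -0.50 to 0.34 for H2-DMa, -0.37 to 0.35 for H2-Eb1, -0.0096 to 0.87 for H2-M3, -0.0062 to 0.49 for H2-Q10, -0.19 to 0.20 for H2-Q4, -0.46 to 0.16 for H2-Q6, -0.33 to 0.078 for H2-Q7, -0.15 to 0.24 for H2-T22, -0.26 to 0.016 for Nlrc5, -0.034 to 0.11 for Psmb10, -0.44 to 0.16 for Psmb8, -0.13 to 0.36 for Psme1 and -0.10 to 0.23 for Psme2. With limma-voom H2-Q4 was at 0.0024 and H2-Eb1 at -0.013. Over all genes the count at an adjusted p under 0.05 was 3 by edgeR, but 8 with total counts alone, 161 without a filter, 85 with DESeq2, 2 with limma-voom or with at least 10 counts in every sample, and 0 to 73 with a mouse left out. The alternatives for H2-Q1, the other named genes and the lists outside the 32, the summed exon length for the proteasome ratios and class I without H2-Q10 were added after seeing the data. No paired analysis was possible because the mouse numbers do not repeat between the groups.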
